A study of Mus musculus with 10 samples.

Results

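The 10 genes described here are the core kinases of the Hippo pathway with their adaptors and upstream scaffolds: LATS1, LATS2, STK3, STK4, SAV1, MOB1A, MOB1B, WWC1, FRMD6 and TAOK1. They were taken by symbol from 16895 genes measured by RNA-seq in 10 mouse tumors, and each symbol was found in every library. The tumors carried NLS-2SA-YAP1 (n = 3), a constitutively active YAP1 by the series title, or YAP1-MAML2-v2 (n = 7), a fusion of YAP1 with MAML2, a coactivator of Notch signaling. DF1 chicken fibroblasts transfected with 1 of the 2 RCAS avian retroviral constructs were injected under the arachnoid of Nestin/tv-a Cdkn2a null pups at p0 to p3. All groups thus share the loss of Cdkn2a, a gene for cell cycle inhibitors, and tv-a, the viral receptor, under Nestin control, so infection depends on cells that use Nestin. NLS-2SA-YAP1 replicate 1 and YAP1-MAML2-v2 replicates 2 and 6 came from the extra axial region (n = 3). NLS-2SA-YAP1 replicates 2 and 3 and YAP1-MAML2-v2 replicates 1, 3, 4 and 5 were extra cranial (n = 6), and YAP1-MAML2-v2 replicate 7 was intra ventricular (n = 1). Normal or uninfected tissue was not analysed here, so every comparison is between tumors. The sources used here do not give the age at collection, the sex or whether each tumor came from a separate mouse, so p-values measure the spread between these libraries. The deposited names of YAP1-MAML2-v2 replicates 6 and 7 carry the same number, so these 2 libraries may come from 1 mouse, and n = 7 counts libraries.

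In the Hippo pathway, upstream scaffolds and TAO kinases switch on the MST kinases STK3 and STK4. With the scaffold SAV1 they phosphorylate the LATS kinases and their MOB1 coactivators. LATS1 and LATS2 then phosphorylate YAP1 and TAZ, which keeps these coactivators out of the nucleus and away from TEAD transcription factors. LATS2 is itself known as a YAP1-TEAD target gene, a negative feedback, and NF2, the scaffold that brings LATS to the membrane, is the gene most often mutated in human meningioma.

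The promoter windows of the LATS kinases are shown because the feedback on LATS2 runs through TEAD. Windows are from RefSeq (GRCm38.p6) and cover 250 bases before to 50 bases after a RefSeq start of a gene. They are written 5′ to 3′ on the strand of the gene. Capitals mark the TEAD motif GGAATG, or CATTCC on the other strand.
LATS2, chr14:57746074-57746373, minus strand: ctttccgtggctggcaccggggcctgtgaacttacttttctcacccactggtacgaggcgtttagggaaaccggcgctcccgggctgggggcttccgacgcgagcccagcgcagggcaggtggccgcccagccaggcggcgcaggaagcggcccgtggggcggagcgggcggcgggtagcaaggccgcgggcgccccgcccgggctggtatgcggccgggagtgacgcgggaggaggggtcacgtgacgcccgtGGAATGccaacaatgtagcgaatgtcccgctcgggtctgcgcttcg
LATS1, chr10:7680959-7681258, plus strand: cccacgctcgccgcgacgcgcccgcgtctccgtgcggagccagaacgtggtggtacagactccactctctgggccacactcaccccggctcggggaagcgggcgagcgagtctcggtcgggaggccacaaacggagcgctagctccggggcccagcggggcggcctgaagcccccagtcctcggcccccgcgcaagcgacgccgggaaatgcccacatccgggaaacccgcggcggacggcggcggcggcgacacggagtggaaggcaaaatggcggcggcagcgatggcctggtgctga
The LATS2 window held 1 match, 4 to 9 bases downstream of the start base, and the LATS1 window held 0. A second LATS2 window, chr14:57734369-57734668, also held 0. Both LATS2 windows lie inside the gene's span in GENCODE M21, chr14:57689662-57758388, and neither reaches its 5′ end. The match is thus placed by a RefSeq start, and the sequence at the GENCODE start was not searched. Of the 9 members with a window, SAV1 and MOB1A each held 1 match as well, 106 to 101 and 209 to 204 bases upstream of the start base, given here with 15 bases on either side.
SAV1, chr12:69987088-69987123, minus strand: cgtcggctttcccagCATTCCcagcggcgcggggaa
MOB1A, chr6:83325815-83325850, plus strand: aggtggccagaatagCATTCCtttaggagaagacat
Of all 32851 windows, 14.7% held this motif on either strand. The AP-1 motif TGANTCA was in 0 member windows and in 7.81% of all windows. A match describes letters only and shows no binding.

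All 10 members passed the filter on low values that left 13707 genes for testing. Library totals were between 28001143 and 44544314, and because the deposited values are not plain read counts the depth behind them is unknown. Values are CPM, counts scaled to a common library total with TMM factors, unless stated otherwise, and YAP1-MAML2-v2 replicate 4 had the lowest deposited value of any member, 49 for WWC1. Set against its exon length, MOB1A stood highest, with a median over the 10 libraries of 27.5 CPM per kb. TAOK1 and SAV1 followed at 16.4 and 15.8 CPM per kb, and STK4, LATS2 and LATS1 at 9.94, 8.88 and 8.82 CPM per kb. FRMD6, WWC1, STK3 and MOB1B had medians of 5.86, 5.16, 4.08 and 2.41 CPM per kb. Each member's highest library was 3.20 times (STK4) to 40.5 times (WWC1) its lowest, so neighbours in this order overlap across libraries. The median of that range over members was 6.21-fold, against 5.59-fold over the 12709 tested genes with no value of 0. LATS2 exceeded LATS1 per kb in 3 of 10 libraries, STK4 exceeded STK3 in 8, and MOB1B exceeded MOB1A in 0. The exon length of LATS2 includes 2955 bases shared on the same strand with Gm49361, another annotated gene. How reads there were counted is not given, so the LATS2 level per kb and its place beside LATS1 hold only if LATS2 received them. For such bulk tumors, fewer cells of a type and less RNA per cell cannot be told apart.

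NLS-2SA-YAP1 replicate 1 stood apart for these genes: it had the lowest CPM of all 10 libraries for 7 of the 10 members, LATS1, LATS2, STK3, MOB1A, MOB1B, FRMD6 and TAOK1. Over all tested genes it was the lowest library for 12.8%. YAP1-MAML2-v2 replicate 2 was the highest for 4 members, LATS1, STK3, MOB1B and FRMD6, against 13.0% of all tested genes. NLS-2SA-YAP1 replicate 1 is also the sole extra axial library of its construct. Each member's estimate between constructs is therefore given with and without it.

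**Figure D1:**
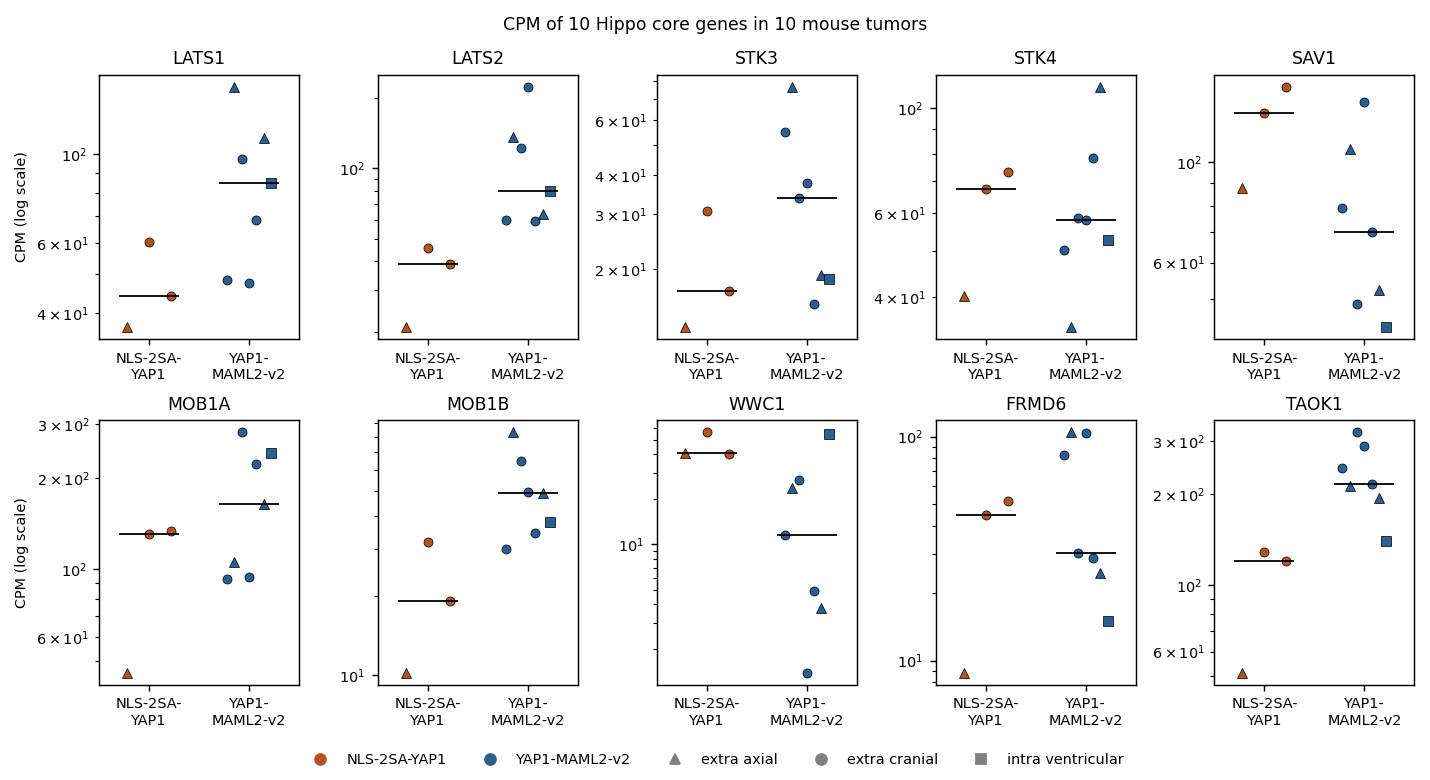
CPM (log scale, its own range in each panel) of the 10 members, with NLS-2SA-YAP1 tumors (n = 3) left and YAP1-MAML2-v2 tumors (n = 7) right in each panel. Points are libraries, point shapes are regions and bars are medians; LATS2 and TAOK1 are the panels in which the 2 constructs do not overlap, and the extra axial NLS-2SA-YAP1 library is the lowest point in 7 panels.

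No member passed an adjusted p of 0.05 between constructs by edgeR's quasi-likelihood test, which called 0.0146% of all tested genes. Estimates, as log2 of NLS-2SA-YAP1 over YAP1-MAML2-v2, were below 0 for 8 members and above 0 for SAV1 and WWC1, with a median of -0.86 against -0.03 over all genes. LATS2, MOB1B and TAOK1 on the low side and WWC1 on the high side had an unadjusted p under 0.05. That is 4 of 10 members, where 13.1% of all genes had such a p, 5.44% higher and 7.61% lower. LATS2 and TAOK1 were the 2 members whose libraries did not overlap between constructs, both lower in NLS-2SA-YAP1, where 6.73% of all genes did not overlap. DESeq2 called LATS2 and TAOK1, where it called 5% of all genes, and limma-voom with sample quality weights called 0 members, where it called 0.693%. Without NLS-2SA-YAP1 replicate 1, TAOK1 was the 1 member with an unadjusted p under 0.05 (9.28% of all genes), and among extra cranial libraries alone LATS2 and TAOK1 were the 2 (9.6%). With a skeletal muscle covariate LATS1, LATS2, MOB1A, MOB1B and TAOK1 were the 5 (9.62% of all genes), all on the low side. WWC1 was then at 1.24 (edgeR unadjusted p = 0.260). That covariate, a mean log2 CPM, was 1.69 and 3.44 in NLS-2SA-YAP1 replicates 2 and 3 and -1.54 in replicate 1. It was 1.31 in YAP1-MAML2-v2 replicate 3 and negative in the rest, so it is tied in part to construct. The 5 are among the 7 members lowest in NLS-2SA-YAP1 replicate 1. Leaving out YAP1-MAML2-v2 replicate 6, which may share a mouse with replicate 7, gave -1.78 for LATS2 and -1.35 for TAOK1. Replicate 7, the intra ventricular library, has a region term of its own and does not enter this contrast. Leaving it out (-1.70 and -1.38) is therefore no check on a shared mouse.

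LATS2 is a kinase that phosphorylates YAP1, encoded on the minus strand at chr14:57689662-57758388 (mm10). NLS-2SA-YAP1 replicates 1 to 3 had 20.97, 45.5 and 39.1 CPM, against 59.8, 136, 122, 224, 59.3, 64.0 and 80.0 CPM in YAP1-MAML2-v2 replicates 1 to 7. Every NLS-2SA-YAP1 library was below every YAP1-MAML2-v2 library, and YAP1-MAML2-v2 replicate 4 was the highest. The means were 35.2 ± 12.7 CPM with NLS-2SA-YAP1 (SD, n = 3) and 106 ± 60.3 CPM with YAP1-MAML2-v2 (SD, n = 7), and the edgeR log2 fold change was -1.71 (SE 0.53, adjusted p = 0.253). DESeq2 gave LATS2 -1.73 with an adjusted p of 0.0223, while edgeR gave -1.46 (unadjusted p = 0.0520) without NLS-2SA-YAP1 replicate 1. Among extra cranial libraries alone the LATS2 estimate was -1.46 (edgeR unadjusted p = 0.0466). LATS2 shares 2955 exon bases on the same strand with Gm49361, a second annotated gene, and the sources used here do not give how reads there were counted.

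LATS1, the paralog of LATS2 with the same role, lies on the plus strand at chr10:7681214-7716460. It stood at 37.0, 60.4 and 44.1 CPM in NLS-2SA-YAP1 replicates 1 to 3, against 48.5, 148, 97.6, 47.6, 68.3, 110.1 and 84.6 CPM in YAP1-MAML2-v2 replicates 1 to 7. NLS-2SA-YAP1 replicate 2 lay within the YAP1-MAML2-v2 range, and the 2 highest libraries were both extra axial YAP1-MAML2-v2 tumors. The edgeR log2 fold change of LATS1 was -0.76 (SE 0.41, adjusted p = 0.465). Without NLS-2SA-YAP1 replicate 1 it was -0.34 (edgeR unadjusted p = 0.437). With the muscle covariate, tied in part to construct, LATS1 was at -1.36 (edgeR unadjusted p = 0.0223). Without the 3 libraries richest in muscle transcripts LATS1 was at -1.89, with NLS-2SA-YAP1 replicate 1 alone in its group.

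The ratio of LATS2 to LATS1 within a library does not depend on scaling between libraries. Its log2 averaged -0.47 ± 0.33 with NLS-2SA-YAP1 (SD, n = 3) and 0.24 ± 0.95 with YAP1-MAML2-v2 (SD, n = 7). LATS2 was below LATS1 in all 3 NLS-2SA-YAP1 libraries, and above it in YAP1-MAML2-v2 replicates 1, 3 and 4. Which paralog stands higher also depends on how reads were counted in the bases that LATS2 shares with Gm49361. The constructs overlapped, with a difference of -0.70 (two-sided exact permutation p = 0.117, adjusted p = 0.350 over 3 paralog pairs). YAP1-MAML2-v2 replicate 4 stood alone at a log2 ratio of 2.23, and the next library was at 0.32. With 3 against 7 libraries the smallest p this test can give is 0.0167.

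STK3 and STK4 are the MST kinases that phosphorylate LATS and MOB1. STK3, on the minus strand at chr15:34875496-35178921, stood at 13.0, 30.8 and 17.0 CPM in NLS-2SA-YAP1 replicates 1 to 3. In YAP1-MAML2-v2 replicates 1 to 7 it had 54.9, 77.0, 33.7, 37.8, 15.4, 19.2 and 18.5 CPM. The last 3 of these lay within the NLS-2SA-YAP1 range and the first 4 above it, and the estimate of STK3 was -0.96 (log2, SE 0.58, edgeR adjusted p = 0.510) and -0.58 without NLS-2SA-YAP1 replicate 1. STK4, on the plus strand at chr2:164070322-164155524, stood at 40.2, 67.3 and 73.2 CPM in NLS-2SA-YAP1 replicates 1 to 3. In YAP1-MAML2-v2 replicates 1 to 7 STK4 had 50.1, 34.6, 58.5, 57.9, 78.4, 111 and 52.8 CPM. Its groups overlapped at both ends, with an estimate of -0.12 (log2, SE 0.40, edgeR adjusted p = 0.939) and 0.19 without NLS-2SA-YAP1 replicate 1.

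The balance of the MST kinases varied widely among YAP1-MAML2-v2 tumors, and the constructs overlapped. The log2 ratio of STK4 to STK3 averaged 1.62 ± 0.49 with NLS-2SA-YAP1 (SD, n = 3) and 0.93 ± 1.32 with YAP1-MAML2-v2 (SD, n = 7) (two-sided exact permutation p = 0.417, adjusted p = 0.417). Within YAP1-MAML2-v2 it ran from -1.15 in replicate 2, where STK3 was the higher, to 2.53 in replicate 6. Those 2 libraries come from the same construct and the same region.

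SAV1 is the scaffold that holds the MST kinases in their active complex, on the minus strand at chr12:69965012-69987002. It stood at 87.7, 128 and 146 CPM in NLS-2SA-YAP1 replicates 1 to 3, against 79.1, 107, 48.5, 135, 69.9, 52.2 and 43.3 CPM in YAP1-MAML2-v2 replicates 1 to 7. The highest library was an NLS-2SA-YAP1 one and the 5 lowest were YAP1-MAML2-v2 ones, but the groups overlapped. The means were 121 ± 30.0 CPM with NLS-2SA-YAP1 (SD, n = 3) and 76.5 ± 33.9 CPM with YAP1-MAML2-v2 (SD, n = 7), with a log2 fold change of 0.54 (SE 0.38, edgeR adjusted p = 0.587). For SAV1 it was 0.71 without NLS-2SA-YAP1 replicate 1. SAV1 shares 1336 exon bases with Atl1 on the opposite strand. The libraries are stranded per the labels, and the sources used here do not give the strand setting of the counting.

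MOB1A and MOB1B are near-identical coactivators that bind and activate LATS kinases. MOB1A, on the plus strand at chr6:83326016-83343776, stood at 45.8, 130.2 and 133 CPM in NLS-2SA-YAP1 replicates 1 to 3. In YAP1-MAML2-v2 replicates 1 to 7 it had 93.2, 106, 282, 94.2, 222, 165 and 241 CPM. NLS-2SA-YAP1 replicate 1 was below all others and the other two lay inside the YAP1-MAML2-v2 range, with an estimate of -0.74 (log2, SE 0.47, edgeR adjusted p = 0.530). For MOB1A it was -0.41 (edgeR unadjusted p = 0.471) without NLS-2SA-YAP1 replicate 1, and -1.44 (edgeR unadjusted p = 0.0266) with the muscle covariate. MOB1B, on the plus strand at chr5:88720855-88764220, stood at 10.2, 32.0 and 19.0 CPM in NLS-2SA-YAP1 replicates 1 to 3. In YAP1-MAML2-v2 replicates 1 to 7 MOB1B had 29.9, 83.1, 64.8, 49.4, 34.4, 49.0 and 38.1 CPM. YAP1-MAML2-v2 replicate 1 was below NLS-2SA-YAP1 replicate 2, the sole overlap. The log2 fold change of MOB1B was -1.33 (SE 0.49, edgeR unadjusted p = 0.0217, adjusted p = 0.304). Without NLS-2SA-YAP1 replicate 1 it was -0.82 (edgeR unadjusted p = 0.119).

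MOB1B was the lower of the MOB1 paralogs in every library. The log2 ratio of MOB1B to MOB1A averaged -2.33 ± 0.42 with NLS-2SA-YAP1 (SD, n = 3) and -1.73 ± 0.87 with YAP1-MAML2-v2 (SD, n = 7), with overlap (two-sided exact permutation p = 0.283, adjusted p = 0.417). YAP1-MAML2-v2 replicate 2 was the nearest to equal, at -0.34. Neither the MOB1 pair nor the LATS pair shared a run of 50 bases between its transcripts.

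**Figure D2:**
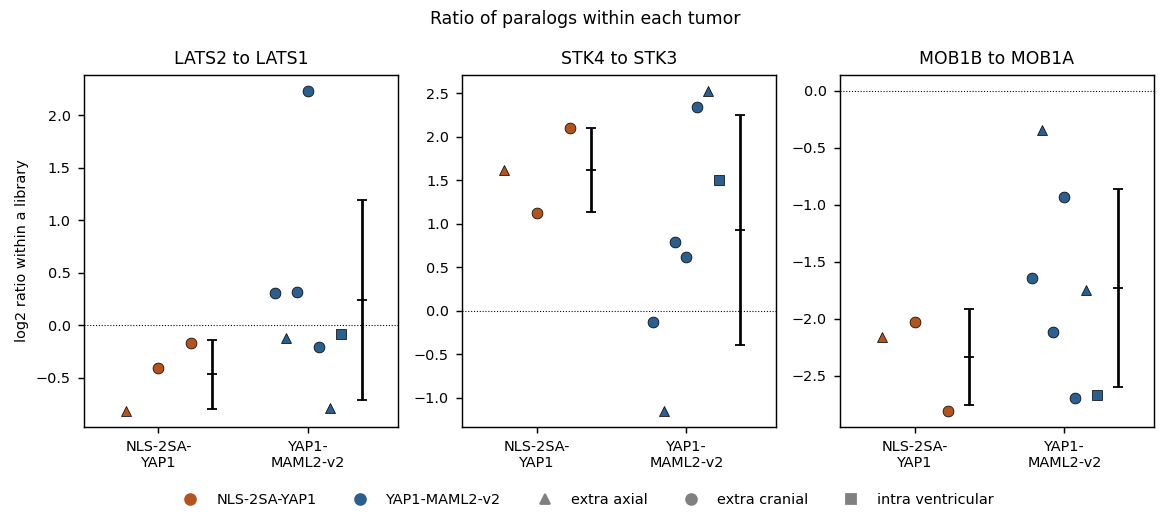
Log2 ratio within a library of LATS2 to LATS1, STK4 to STK3 and MOB1B to MOB1A, with NLS-2SA-YAP1 tumors (n = 3) left and YAP1-MAML2-v2 tumors (n = 7) right. Points are libraries, bars are the mean and SD, and the dotted line is an equal level; YAP1-MAML2-v2 replicate 4 stands alone at 2.23 for LATS2 to LATS1, and MOB1B to MOB1A is below 0 in all 10 libraries.

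WWC1, also called KIBRA, is a scaffold that brings LATS and MST kinases together at the membrane, on the minus strand at chr11:35838400-35980527. NLS-2SA-YAP1 replicates 1 to 3 had 40.7, 56.2 and 40.1 CPM, against 11.6, 24.0, 27.1, 1.39, 4.91, 3.74 and 54.4 CPM in YAP1-MAML2-v2 replicates 1 to 7. The intra ventricular YAP1-MAML2-v2 tumor lay within the NLS-2SA-YAP1 range, and the other 6 were below it. The means were 45.7 ± 9.15 CPM with NLS-2SA-YAP1 (SD, n = 3) and 18.2 ± 18.9 CPM with YAP1-MAML2-v2 (SD, n = 7), and the edgeR log2 fold change was 1.92 (SE 0.79, unadjusted p = 0.0369, adjusted p = 0.353). The intra ventricular library has a region term of its own and does not enter that contrast. With no region term, which brings that library back in, the estimate of WWC1 was 1.33 (edgeR unadjusted p = 0.139). The limma-voom estimate of WWC1 was 2.59 (adjusted p = 0.0688), and the edgeR estimate without NLS-2SA-YAP1 replicate 1 was 2.08 (unadjusted p = 0.0760).

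FRMD6, also called willin, is a FERM-domain protein placed upstream of the MST kinases, on the plus strand at chr12:70825514-70902234. It stood at 8.83, 44.7 and 51.4 CPM in NLS-2SA-YAP1 replicates 1 to 3, against 83.0, 105, 30.2, 104, 28.6, 24.5 and 15.1 CPM in YAP1-MAML2-v2 replicates 1 to 7. YAP1-MAML2-v2 replicates 1, 2 and 4 were above and replicates 3, 5, 6 and 7 below the NLS-2SA-YAP1 extra cranial pair. The estimate of FRMD6 was -1.01 (log2, SE 0.71, edgeR adjusted p = 0.589), and -0.36 without NLS-2SA-YAP1 replicate 1. Part of its sequence, 13.1% of its runs of 50 bases, is shared with other transcripts, chiefly Gm5780.

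TAOK1 is a kinase that phosphorylates the MST kinases, on the minus strand at chr11:77529162-77607815. NLS-2SA-YAP1 replicates 1 to 3 had 51.1, 128 and 120.0 CPM, against 243, 212, 319.9, 287, 215, 194 and 139.9 CPM in YAP1-MAML2-v2 replicates 1 to 7. Every NLS-2SA-YAP1 library was below every YAP1-MAML2-v2 library, the nearest of which was the intra ventricular one. The means were 99.8 ± 42.4 CPM with NLS-2SA-YAP1 (SD, n = 3) and 230.3 ± 59.8 CPM with YAP1-MAML2-v2 (SD, n = 7). Of the 10 members TAOK1 had the smallest p, with a log2 fold change of -1.38 (SE 0.32, edgeR unadjusted p = 0.00153, adjusted p = 0.165). For TAOK1, DESeq2 gave -1.40 with an adjusted p of 0.000517, and limma-voom gave -1.19 with an adjusted p of 0.0593. Without NLS-2SA-YAP1 replicate 1 the edgeR estimate of TAOK1 was -1.11 (unadjusted p = 0.0106), and among extra cranial libraries alone it was -1.11 (unadjusted p = 0.0166).

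**Figure D3:**
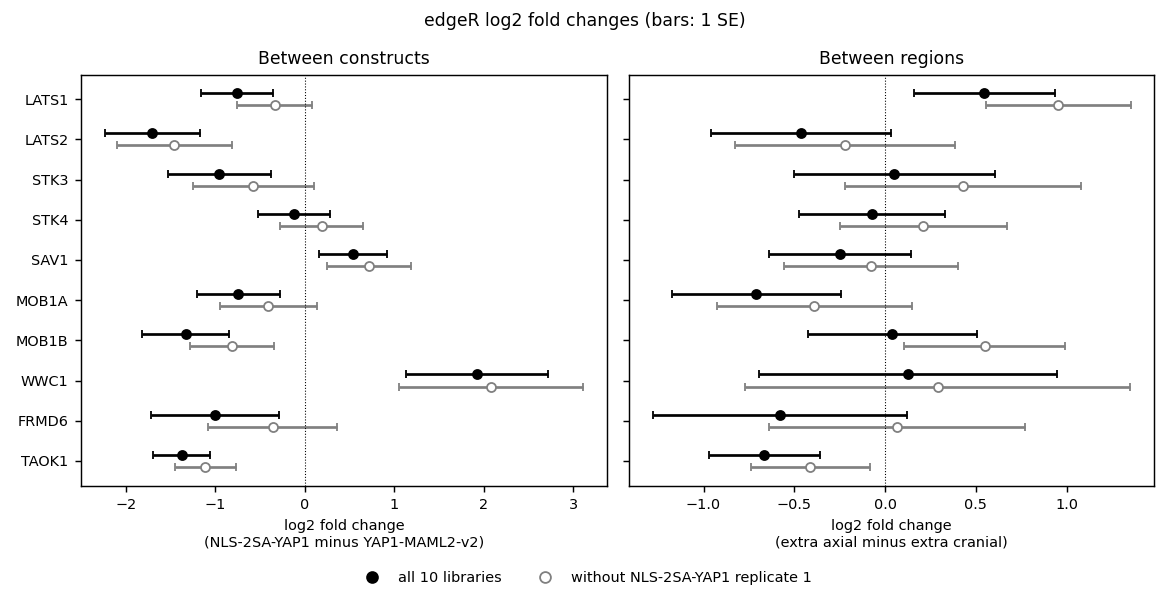
Log2 fold changes of the 10 members with edgeR, between constructs (left panel, positive where NLS-2SA-YAP1 is higher) and between regions (right panel, positive where extra axial is higher); bars are 1 SE, filled points use all 10 libraries and open points leave out NLS-2SA-YAP1 replicate 1. Between constructs LATS2 and TAOK1 stay below -1 in both fits, at -1.71 and -1.46 for LATS2 and at -1.38 and -1.11 for TAOK1.

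Between regions, no member passed an adjusted p of 0.05 by edgeR (0% of all genes did) and 0 had an unadjusted p under 0.05, where 3.01% of all genes had one. No member separated extra axial from extra cranial libraries, where 0.89% of all genes did. By edgeR over all 10 libraries the 2 largest estimates below 0 were those of MOB1A and TAOK1. With limma-voom the largest was that of FRMD6, at -1.08, with TAOK1 at -0.64 and MOB1A at -0.41. MOB1A averaged 105 ± 59.4 CPM (SD, n = 3) in extra axial tumors and 159 ± 76.3 CPM (SD, n = 6) in extra cranial tumors, a log2 fold change of -0.71 (SE 0.47, edgeR unadjusted p = 0.161). TAOK1 averaged 153 ± 88.3 CPM (SD, n = 3) in extra axial tumors and 219 ± 81.8 CPM (SD, n = 6) in extra cranial tumors, with -0.66 (SE 0.31, edgeR unadjusted p = 0.0553). LATS1 had the largest estimate above 0, at 98.3 ± 56.4 CPM (SD, n = 3) in extra axial tumors and 61.1 ± 20.1 CPM (SD, n = 6) in extra cranial tumors, with 0.55 (SE 0.39, edgeR unadjusted p = 0.189). LATS2 averaged 73.8 ± 58.4 CPM (SD, n = 3) in extra axial tumors and 91.6 ± 71.1 CPM (SD, n = 6) in extra cranial tumors, with -0.46 (SE 0.50, edgeR unadjusted p = 0.374). Without NLS-2SA-YAP1 replicate 1, LATS1 was at 0.96 (edgeR unadjusted p = 0.0413), the 1 member below 0.05 where 4.44% of all genes were, and TAOK1 at -0.41 (edgeR unadjusted p = 0.244). In the same fit MOB1A was at -0.39 and LATS2 at -0.22. DESeq2 gave an unadjusted p under 0.05 for TAOK1 alone of the 10 (4.88% of all genes).

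The interaction of construct and region asked whether the constructs differed alike in both regions. Called members numbered 0 of 10 by edgeR (0.00741% of all genes). MOB1B was the 1 member with an unadjusted p under 0.05 (7.14% of all genes), at -1.88 (log2, SE 0.81, edgeR unadjusted p = 0.0473). All 10 estimates were below 0, with a median of -1.10 against -0.04 over all genes. Because 1 library, NLS-2SA-YAP1 replicate 1, carries this term, the interaction cannot be estimated without it.

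The feedback on LATS2 was described beside YAP1 and 4 standard YAP1-TEAD targets. YAP1 itself had 421 to 592 CPM with NLS-2SA-YAP1 and 122 to 174 CPM with YAP1-MAML2-v2, with a log2 fold change of 1.75 (SE 0.26, edgeR adjusted p = 0.0898). The sources used here do not give whether YAP1 values include reads from the RCAS constructs. The group with the higher YAP1 values thus had the lower LATS2 values. CTGF, a secreted matricellular protein, ran from 28.7 to 2899.6 CPM with NLS-2SA-YAP1 and from 465 to 5090.2 CPM with YAP1-MAML2-v2. CYR61, its relative, ran from 276 to 459.9 CPM with NLS-2SA-YAP1 and from 2.36 to 680.2 CPM with YAP1-MAML2-v2. AMOTL2, an angiomotin, ran from 132 to 224 CPM with NLS-2SA-YAP1 and from 41.5 to 429 CPM with YAP1-MAML2-v2. ANKRD1, a cardiac ankyrin repeat protein, was low, from 3.40 to 6.49 CPM with NLS-2SA-YAP1 and from 0.0237 CPM, a deposited value of 1, to 28.5 CPM with YAP1-MAML2-v2. All 4 targets overlapped between constructs.

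Within the 7 YAP1-MAML2-v2 tumors, log2 CPM of LATS2 was positively related to each of these 5 genes, and none of the 5 relations passed adjustment. Pearson's r with AMOTL2 was 0.83 (exact permutation p = 0.0187, adjusted p = 0.0933 over 5 relations; Spearman's rho = 0.75, p = 0.0663). With CTGF r was 0.78 (exact permutation p = 0.0377, adjusted p = 0.0942; rho = 0.46, p = 0.302). With ANKRD1 r was 0.71 (exact permutation p = 0.0875, adjusted p = 0.109; rho = 0.29, p = 0.556). With YAP1 r was 0.71 (exact permutation p = 0.0722, adjusted p = 0.109; rho = 0.54, p = 0.236). With CYR61 r was 0.61 (exact permutation p = 0.120, adjusted p = 0.120; rho = 0.79, p = 0.0480). For rho the adjusted permutation p over the 5 relations was 0.166 at the lowest, with AMOTL2 and CYR61. The 2 libraries farthest from the median were then left out, which removed replicate 4 for all but CYR61. With 5 libraries left, r was 0.26 with AMOTL2, 0.10 with CTGF, -0.01 with ANKRD1, 0.75 with YAP1 and 0.77 with CYR61. The exact permutation p of these ran from 0.150 (CYR61) to 0.958 (ANKRD1). The first 3 relations were thus weak without those libraries, but leaving out extremes narrows the range and can itself lower r. The permutation p-values treat the 7 libraries as separate, though replicates 6 and 7 may share a mouse and the regions are mixed. Leaving out each library in turn was not run for these relations. Extra cranial replicate 4 had the highest LATS2, CTGF, CYR61, AMOTL2 and YAP1 of the YAP1-MAML2-v2 tumors.

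**Figure D4:**
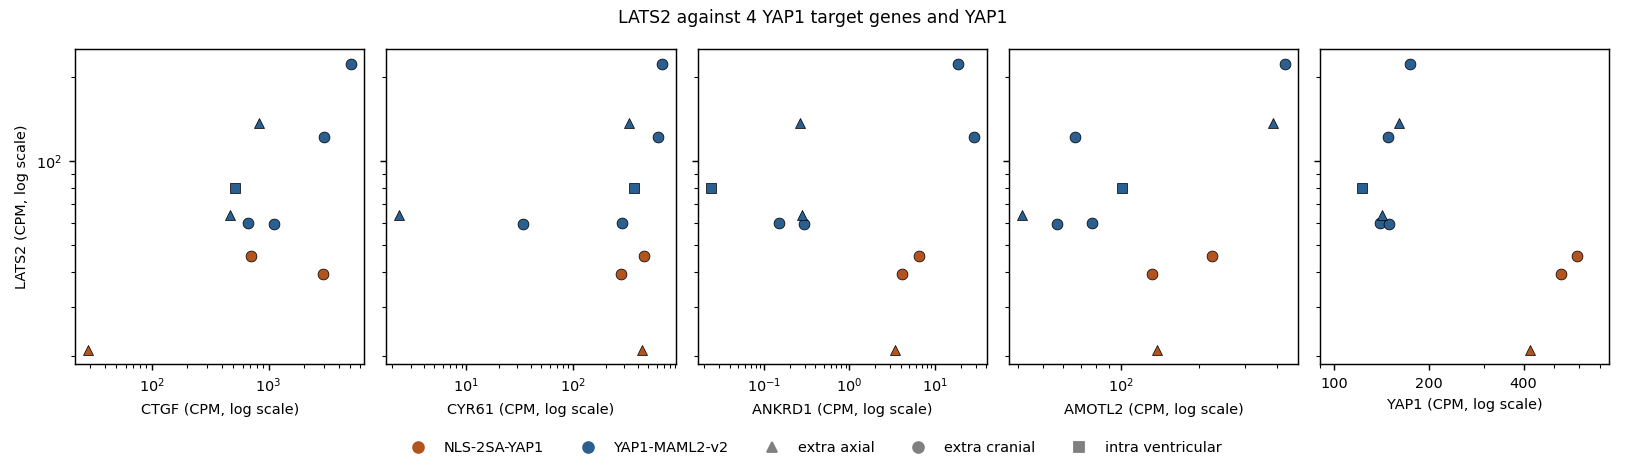
LATS2 CPM (vertical, log scale) against CPM of CTGF, CYR61, ANKRD1, AMOTL2 and YAP1 (horizontal, log scale) in NLS-2SA-YAP1 tumors (n = 3, orange) and YAP1-MAML2-v2 tumors (n = 7, blue), with point shapes for regions. The 3 NLS-2SA-YAP1 points lie below the YAP1-MAML2-v2 points in every panel, and in the YAP1 panel they also stand apart to the right, at 421 to 592 CPM.

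The genes whose log2 CPM was most like that of LATS2 over the 10 libraries were ranked among the 9787 tested genes whose mean log2 CPM reached 3. LRRC20 (Pearson's r = 0.97), TAF9 (0.96), MAML3 (0.94), TGFB2 (0.94) and DLC1 (0.93) led the list. TAF9 is a subunit of the general transcription factor TFIID, MAML3 is a paralog of MAML2, and TGFB2 is a growth factor. TGFB2, also on the list of YAP1-TEAD targets, had 29.2 to 52.5 CPM with NLS-2SA-YAP1 and 57.5 to 361 CPM with YAP1-MAML2-v2. For TAOK1 the leaders included MED13 (r = 0.97), CDK6 (0.95), GHR (0.94) and KLHL28 (0.94). MED13 is a Mediator subunit, CDK6 a cell cycle kinase and GHR the growth hormone receptor. Among members, MOB1B was the nearest to LATS2 (r = 0.87, rank 87), followed by TAOK1 (r = 0.83, rank 151), and LATS1 was at rank 1527 (r = 0.50). Within YAP1-MAML2-v2 tumors alone the order differed. There r with LATS2 was 0.64 for MOB1B, 0.60 for SAV1 (-0.06 over the 10 libraries), 0.54 for FRMD6, 0.49 for TAOK1 and 0.47 for STK3. It was below 0 for LATS1 (-0.0020), WWC1, MOB1A and STK4. These values are a description, since libraries share their construct and the genes were picked for their r.

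Beyond the members, 76 further pathway genes were listed by role, 75 of them in the files and tested. Between constructs edgeR called 0 of the 75, and 11 had an unadjusted p under 0.05, 7 higher and 4 lower in NLS-2SA-YAP1, or 14.7% against 13.1% of all genes. Their median log2 fold change was -0.04. Of 19 other upstream kinases and scaffolds 0 were higher and 1 was lower at that p. This was TP53BP2, a p53-binding protein also tied to Hippo signaling, with 18.3 to 23.8 CPM with NLS-2SA-YAP1 and 45.8 to 125 CPM with YAP1-MAML2-v2 (log2 fold change -1.94, SE 0.39, edgeR adjusted p = 0.148). NF2 ran from 14.6 to 69.2 CPM with NLS-2SA-YAP1 and from 14.4 to 118 CPM with YAP1-MAML2-v2 (-0.39, SE 0.68, edgeR adjusted p = 0.870).

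Of 18 STRIPAK and LIM-domain inhibitors of the kinases, 2 were higher and 0 lower at an unadjusted p under 0.05. These counts and those of the next lists stand against 5.44% higher and 7.61% lower over all genes. AJUBA, a LIM protein that binds and restrains LATS, had 59.3 to 72.8 CPM with NLS-2SA-YAP1 and 8.20 to 33.6 CPM with YAP1-MAML2-v2 (log2 fold change 1.95, SE 0.44, edgeR adjusted p = 0.161). WTIP, its relative, had 56.3 to 89.3 CPM with NLS-2SA-YAP1 and 17.9 to 60.7 CPM with YAP1-MAML2-v2, with 0.93 (SE 0.32). Of 12 polarity and junction genes 2 were higher, AMOT at 1.99 (SE 0.40, edgeR adjusted p = 0.148) and PTPN14 at 1.13 (SE 0.37), both YAP1-binding proteins. The polarity scaffold PARD3 was the 1 lower, at -1.06 (SE 0.35). Of 7 outputs YAP1 and TEAD4 (1.83, SE 0.49) were higher and TEAD2 (-1.70, SE 0.38) was lower. Of 21 YAP1-TEAD targets PTPN14 and ARHGEF17 (1.12, SE 0.38) were higher and TGFB2 (-1.91, SE 0.58) was lower. These 11 genes were picked by their edgeR p in these same libraries. Counts of them in other fits are a description, and the shares over all genes are no yardstick for them. Of the 11, DESeq2 called TP53BP2, AJUBA, AMOT, YAP1, TEAD2, TEAD4 and TGFB2 (5% of all genes), and limma-voom called the first 4 (0.693%). Without NLS-2SA-YAP1 replicate 1, 10 of the 11 had an edgeR unadjusted p under 0.05 (9.28% of all genes), and PARD3 was at -0.89 (edgeR unadjusted p = 0.0647). With the muscle covariate 8 of the 11 had one (9.62% of all genes), all but WTIP, PTPN14 and ARHGEF17. Between regions 0 of the 75 were called by edgeR and 1 had an unadjusted p under 0.05, or 1.33% against 3.01% of all genes. It was CTGF, at 443 ± 403 CPM (SD, n = 3) in extra axial tumors and 2244 ± 1741 CPM (SD, n = 6) in extra cranial tumors (log2 fold change -2.77, SE 1.06). For CTGF it was -1.93 (edgeR unadjusted p = 0.0791) without NLS-2SA-YAP1 replicate 1.

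Markers of other tissues differed between libraries, and the summed levels of all 9 such lists overlapped between constructs. Skeletal muscle genes (11 listed) summed to 7.54, 82.8 and 299.7 CPM in NLS-2SA-YAP1 replicates 1 to 3, and to 2.08 to 58.6 CPM with YAP1-MAML2-v2, highest in replicate 3. In NLS-2SA-YAP1 replicate 3 TNNT3 alone gave 221.7 CPM and DES was next at 22.6 CPM, though each listed gene was highest in that library. The 3 libraries with the most muscle transcripts were NLS-2SA-YAP1 replicates 2 and 3 and YAP1-MAML2-v2 replicate 3. Leaving them out leaves NLS-2SA-YAP1 replicate 1 alone in its group, assumed to vary like the others. Then the estimate was -2.33 for LATS2 (edgeR unadjusted p = 0.0792), -2.08 for TAOK1 (edgeR unadjusted p = 0.00628), -2.78 for MOB1B (edgeR unadjusted p = 0.00603) and 1.48 for WWC1 (edgeR unadjusted p = 0.340). LATS1, MOB1B and TAOK1 were the 3 members below 0.05, where 9.63% of all genes were. The 12 meninges and meningioma genes summed to 18431.5 to 30375 CPM with NLS-2SA-YAP1 and 6304 to 17092 CPM with YAP1-MAML2-v2, without overlap. VIM among them ran from 1917.5 to 16577 CPM, and defining markers were at 0 in part of the libraries: SSTR2 in 5, SLC47A1 in 3, and PTGDS and CLDN11 in 1 each. The 5 astrocyte genes summed to 2194 CPM in intra ventricular YAP1-MAML2-v2 replicate 7 and to at most 199 CPM elsewhere. The part of the meningeal and glial signal in the members' values was not tested.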

How the data were processed

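RNA from 10 flash-frozen tumors was made into stranded mRNA libraries per the labels. Reads were counted with HTSeq on mm10, per the submitters' processing notes, and the sources used here do not give the aligner, annotation, strand setting or any later step. The deposited values are whole numbers but were treated as estimated counts, because in each library the genes at 1 outnumbered those at 2 by 4.54 to 6.82 times. No rounding was needed, and counting intervals and floors are not given. The plan had assumed raw counts. Symbols are in human form, and 15475 of 16895 (91.6%) match GENCODE M21 (mm10) ignoring case, from which coordinates and exon lengths were taken.

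Genes were kept with filterByExpr by construct at a minimum count of 10 (13707 genes) and scaled by TMM. The main fit was edgeR's quasi-likelihood test with construct and region as terms (edgeR 4.0.16, R 4.3.3), with Benjamini-Hochberg adjustment over the genes tested and a threshold of 0.05. That test reports no SE. Each SE given with an edgeR estimate is the absolute log2 fold change divided by the square root of F, the test's statistic. The interaction used the 9 libraries outside the ventricle (13487 genes). CPM was computed from the deposited values, with a prior count of 2 for log2 CPM. Paralog ratios added 1 to each deposited value and were compared by exact permutation with scipy 1.17.1. Alternatives were DESeq2 1.42.0, limma-voom (limma 3.58.1), RLE scaling, no filter, no region term, extra cranial libraries only, the replicate number as a block, a skeletal muscle covariate and leaving out each library. The replicate block used replicates 1 to 3 of each construct only, with no region term. Leaving out the 3 libraries with most muscle transcripts was chosen after seeing the data. The edgeR step was tested on simulated counts. Members and lists were chosen with earlier results of these data known. The text names all members, up to 5 genes of smallest p between constructs and up to 3 between regions of each pathway list, and the 5 genes most like LATS2 and TAOK1, of which 1 is not reported here; NF2, CTGF, CYR61, ANKRD1 and AMOTL2 were set beside LATS2.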

Additional observations from a re-analysis of the deposited data

Results flagged for a closer look

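The LATS2 to LATS1 ratio of YAP1-MAML2-v2 replicate 4, an extra cranial tumor, stood far from the other libraries of its construct and of its region, with a log2 ratio of 2.23 in both groups. The next highest library was YAP1-MAML2-v2 replicate 3 at 0.32, and the gap to it was 0.634 of the whole range among YAP1-MAML2-v2 libraries and 0.724 among extra cranial libraries. That library had 224 CPM of LATS2, the highest of the 10, and 47.6 CPM of LATS1, the lowest of the YAP1-MAML2-v2 tumors. Its skeletal muscle genes summed to 4.74 CPM, within the range of the other YAP1-MAML2-v2 tumors. In all, 26 groups of member values and ratios were checked in this way and 2 were flagged, both by this 1 library, where chance flags about 1 group in 20.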

How the results depend on the processing

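Between constructs 87 of 90 member estimates kept their direction under other settings, and between regions 54 of 60. STK4 between constructs turned to 0.073 with limma-voom and 0.18 with extra cranial libraries only. It turned to 0.32 with the replicate block, which used replicates 1 to 3 of each construct. DESeq2 called 2 members where edgeR called 0. Members at an unadjusted p under 0.05 between constructs numbered 2 with extra cranial libraries only (9.6% of all genes), and between regions 1 with DESeq2 (TAOK1, 4.88%) and 1 without the 3 muscle-rich libraries (LATS1, 3.66%). Over all genes edgeR called 2, DESeq2 685 and limma-voom 95 between constructs.

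Without the 3 muscle-rich libraries, estimates turned to -0.0027 for MAP4K4, 0.039 for STK38L and -0.11 for SLMAP between constructs, and to 0.28 for STK4, 0.020 for MOB1A, 0.43 for TEAD1 and 0.015 for YAP1 between regions. With the muscle covariate, which is tied in part to construct, DLG5 turned to -0.11. With it 5 members had an unadjusted p under 0.05 between constructs, LATS1 and MOB1A gained and WWC1 lost. Between regions, STK3 turned to -0.41 and WWC1 to -0.20 with limma-voom, and STK4 to 0.24, FRMD6 to 0.052 and TEAD1 to 0.21 within YAP1-MAML2-v2 tumors alone. The correlation of LATS2 with ANKRD1 was -0.0098 without the 2 farthest libraries, and that with YAP1 was -0.62 over all 10 libraries, which fall into separate groups by construct.

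Leaving out each library in turn, called members stayed at 0, and members at an unadjusted p under 0.05 ranged from 1 to 4 between constructs and from 0 to 2 between regions. Between constructs, leaving out NLS-2SA-YAP1 replicate 1 left TAOK1 alone (9.28% of all genes), and leaving out replicate 3 left LATS2 and TAOK1 (9.7% of all genes). Between regions the 2 were FRMD6 and TAOK1, without YAP1-MAML2-v2 replicate 2 (3.11%). The ratio differences ran from -0.87 to -0.37 for LATS2 to LATS1, from 0.34 to 0.95 for STK4 to STK3 and from -0.76 to -0.36 for MOB1B to MOB1A. STK4 ran from -0.27 to 0.20 between constructs. Between regions the ranges that crossed 0 were -0.89 to 0.43 for STK3, -0.81 to 0.21 for STK4, -0.46 to 0.55 for MOB1B, -0.91 to 0.75 for WWC1, -1.80 to 0.065 for FRMD6, -0.32 to 1.41 for MAP4K3, -0.21 to 1.09 for SCRIB, -0.064 to 0.56 for TEAD2 and -0.90 to 0.22 for TEAD1.

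Whether replicate numbers pair the libraries is not settled. Deviations of same-numbered libraries correlated at 0.17, 0.34 and -0.07. The 0.34, between the libraries numbered 2, was the highest of any pair, but not every library correlated best with its own number. The fit with the replicate block used replicates 1 to 3 of each construct only and had no region term. The libraries numbered 1, and those numbered 2, also differ in region. In that fit 6 members had an edgeR unadjusted p under 0.05 (11.1% of all genes) and 0 were called, with LATS2 at -1.58 and TAOK1 at -1.46.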
